A study of Mus musculus with 16 samples.

Results

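The nuclear-encoded genes of the respiratory chain were followed through 16 RNA libraries from the striata of 8 adult mice. They were chosen by a rule on names, with earlier results of these data known. The rule took every gene row starting with Nduf, Uqcr, Cox4, Cox5, Cox6, Cox7, Cox8 or Atp5. Sdha, Sdhb, Sdhc, Sdhd and Cycs were added and pseudogene names left out, which gave 92 of 20730 gene rows. By complex there were 36 subunits of complex I, 7 assembly factors of complex I, 4 genes of complex II, 8 of complex III, the cytochrome c gene Cycs, 19 of complex IV and 17 of ATP synthase. Of the 92 names, 89 matched a RefSeq symbol and 3 a synonym (Atp5f1, Atp5s and Atp5sl, now Atp5pb, Dmac2l and Dmac2). Atp5s and Atp5sl are related factors that are not subunits, and Ndufa4 and Ndufa4l2 were placed with complex IV, where later work puts them.

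The respiratory chain sits in the inner mitochondrial membrane. Complex I takes electrons from NADH and complex II takes them from succinate, complex III passes them to cytochrome c, and complex IV gives them to oxygen. The protons moved on the way drive ATP synthase, which makes most of the ATP that neurons and astrocytes use. A few central subunits of the chain are made inside the mitochondrion from its own genome and were not analysed here. The others are nuclear genes: core subunits, many of which carry out the chemistry, and many small accessory subunits that build and steady the complexes. The 18 genes listed here as core come from complexes I, II and III, cytochrome c and ATP synthase, with none from complex IV. They include membrane anchors (Sdhc, Sdhd) and core proteins of complex III (Uqcrc1, Uqcrc2), so the list is not one of catalytic subunits alone.

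All mice were of the strain C57BL/6N, and all received an adeno-associated virus carrying RiboTag, the ribosomal protein Rpl22 with a hemagglutinin tag, meant for astrocytes of the striatum. The 4 control mice also received a virus for a control protein, and the 4 PMCA mice one for hPMCA2w/b, a calcium pump that suppresses calcium signals. The promoters of the viruses, the identity of the control protein, and the age in weeks and sex of the mice are not stated by the labels. Each mouse gave one input library, from the cleared lysate of the whole striatum with all its cell types, and one IP library, from RNA pulled down with the tagged ribosomes. The 4 groups were therefore control IP, PMCA IP, control input and PMCA input, with 4 mice each.

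Total counts were 32.3 M to 40.9 M gene reads in an input and 46.8 M to 58.5 M in an IP. All 10 astrocyte markers were higher in IP than in input (median log2 fold 3.30 in control and 3.47 in PMCA mice), and all 9 microglia markers were lower (-5.85 and -5.38). Of 10 neuron markers 7 were lower and 1 higher in control IP (median -0.63). All 8 projection neuron markers were lower in both treatments. So were all 5 nuclear RNAs (median -2.59 in control and -1.51 in PMCA mice) and 6 of 7 endothelial and mural markers, with 1 higher. Over all genes 39.1% were higher and 38.4% lower in control IP, and 37.4% and 39.3% in PMCA IP. Of 6 oligodendrocyte markers 2 were higher and 1 lower in control IP (median 0.13), and 3 higher and 0 lower in PMCA IP (0.24). Of 5 parvalbumin interneuron markers 3 were higher and 1 lower in control IP (median 0.26), and 1 higher and 3 lower in PMCA IP (-0.62). Oligodendrocyte and interneuron markers were thus not depleted from IP as microglia markers were, and RNA in IP cannot be read as astrocyte RNA alone. The tagged gene Rpl22 was lower in PMCA mice, at 8.11 against 9.80 log2 CPM in IP (log2 fold -1.69, adjusted p = 1.92e-05, SE 0.089) and 6.72 against 7.60 in input (-0.88, adjusted p = 0.000489, SE 0.066), so treatment and the level of Rpl22 cannot be told apart here. Both libraries of control 4 and of PMCA 3 held high Xist (4.98 to 9.11 log2 CPM), the transcript of the silenced X chromosome, and low Y-linked Ddx3y. The other 6 mice had the opposite pattern. Values are the authors' log2 CPM, reads per gene scaled to the library's size, and tests are limma's, two-sided, with p-values adjusted over all genes tested and called under 0.05.

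Promoter sequences stand first because many of these genes are known targets of a few factors: NRF1, the ETS factor GABP, CREB and YY1. Of the 92 genes, 77 had an entry among the RefSeq promoters (build GRCm38.p6), and 6 short motifs were searched on both strands in the 250 bases before the first listed start. The NRF1 word GCGCATGCG was found in 8 of 77 (10.4%), against 2.72% of 11619 other genes tested in IP and 1.49% of all 27025 promoters. The cyclic AMP response element TGACGTCA was in 5 (6.49%, against 2.64% and 1.62%), and the ETS word CCGGAAG in 12 (15.6%, against 12.1% and 7.05%). The Sp1 word GGGCGG was in 30 (39%, against 57.1% and 32.9%), TATAAA in 6 (7.79%, against 6.71% and 13%), and the YY1 word AAGATGGCG in 0 (0%, against 1.07% and 0.607%). A match is a description of the letters, not a site in use. Bases from the start onward were not searched, so the 0 for YY1 speaks only for these windows. The 5 windows below were chosen to set ubiquitous genes (Cycs, Cox6a1, Cox6b1) beside isoform genes of complex IV (Cox6b2, Cox7a1). Each is 250 bases, 5′ to 3′ on the gene's own strand, ends at the base before the start, and has every match to the searched words in capitals.

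Cycs, chr6:50566570-50566819, minus strand, 64.0% GC: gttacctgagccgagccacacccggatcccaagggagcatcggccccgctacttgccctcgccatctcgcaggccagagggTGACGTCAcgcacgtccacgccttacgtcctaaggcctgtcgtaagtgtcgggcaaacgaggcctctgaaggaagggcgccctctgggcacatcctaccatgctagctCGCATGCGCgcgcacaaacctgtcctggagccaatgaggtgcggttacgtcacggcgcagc
Cox6a1, chr5:115348959-115349208, minus strand, 62.8% GC: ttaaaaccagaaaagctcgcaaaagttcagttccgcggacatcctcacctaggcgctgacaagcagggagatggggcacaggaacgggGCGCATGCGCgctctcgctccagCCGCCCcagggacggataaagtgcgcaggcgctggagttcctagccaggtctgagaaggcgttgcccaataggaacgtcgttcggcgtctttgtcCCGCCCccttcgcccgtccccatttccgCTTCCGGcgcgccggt
Cox6b1, chr7:30626115-30626364, minus strand, 54.0% GC: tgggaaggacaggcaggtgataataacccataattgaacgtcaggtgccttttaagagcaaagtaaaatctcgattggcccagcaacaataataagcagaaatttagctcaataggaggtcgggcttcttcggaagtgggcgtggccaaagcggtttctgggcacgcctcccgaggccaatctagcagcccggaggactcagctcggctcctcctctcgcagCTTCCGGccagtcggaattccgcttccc
Cox6b2, chr7:4753095-4753344, minus strand, 54.8% GC: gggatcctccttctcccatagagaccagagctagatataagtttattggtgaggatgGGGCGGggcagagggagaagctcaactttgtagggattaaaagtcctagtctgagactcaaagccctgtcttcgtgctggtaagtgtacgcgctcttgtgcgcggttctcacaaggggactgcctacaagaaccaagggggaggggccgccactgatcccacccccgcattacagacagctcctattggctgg
Cox7a1, chr7:30183921-30184170, plus strand, 51.2% GC: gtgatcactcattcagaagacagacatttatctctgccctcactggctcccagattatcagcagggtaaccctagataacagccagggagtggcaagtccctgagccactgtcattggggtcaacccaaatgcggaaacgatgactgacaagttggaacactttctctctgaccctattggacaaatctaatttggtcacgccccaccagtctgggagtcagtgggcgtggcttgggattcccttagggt

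In the Cycs window the capitals are a cyclic AMP response element whose first base lies at -169 and an NRF1 word at -61. In Cox6a1 they are an NRF1 palindrome at -162 that matches on both strands and overlaps itself, Sp1 words at -139 and -44, and an ETS word at -16. Cox6b1 had an ETS word at -28, Cox6b2 an Sp1 word at -193, and Cox7a1 no match to any of the 6. The windows also differed in CG pairs, with 23 in Cycs, 26 in Cox6a1 and 14 in Cox6b1 against 8 in Cox6b2 and 4 in Cox7a1. Of the 21 genes with an NRF1, ETS or cyclic AMP word, 14 fell in PMCA IP (median log2 fold -0.28), and of the 55 tested among the 56 with none of those 3, 40 did (median -0.33).

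The first comparison asked how these genes differed between PMCA and control mice in the RNA on tagged ribosomes. Respiratory chain genes fell together: 63 of the 91 tested passed the test as lower and 0 as higher, and 88 lay below 0. The median log2 fold was -0.31, against -0.01 over all genes tested. Among all 15748 genes, 10.1% were called lower and 9.54% higher, and 51.9% lay below 0. In 67 of the 91 genes every PMCA library lay below every control library, as did 14.2% of all genes. Among genes of middle level (means of 5 to 8 log2 CPM in IP), 47 of 64 members were lower, against 14.3% of all such genes. Cox8b had too few reads to be tested. In these bulk libraries, fewer cells of a type and less RNA per cell cannot be told apart.

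The same was visible in the summed reads. The 92 genes took 1.13%, 1.18%, 1.19% and 1.15% of all gene reads in the IP libraries of control 1 to 4, and 0.975%, 0.948%, 0.949% and 0.818% in those of PMCA 1 to 4. The groups did not overlap, and PMCA 4 was the lowest. The mean share was 1.16% ± 0.025 (SD, n = 4) in control IP against 0.923% ± 0.071 in PMCA IP. In input the share was 1.16%, 1.22%, 1.18% and 1.05% in control mice and 1.10%, 1.07%, 0.96% and 0.973% in PMCA mice. The means were 1.15% ± 0.075 and 1.03% ± 0.071 (SD, n = 4 each), and these groups overlapped, since control 4 lay within the PMCA range.

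**Figure D1:**
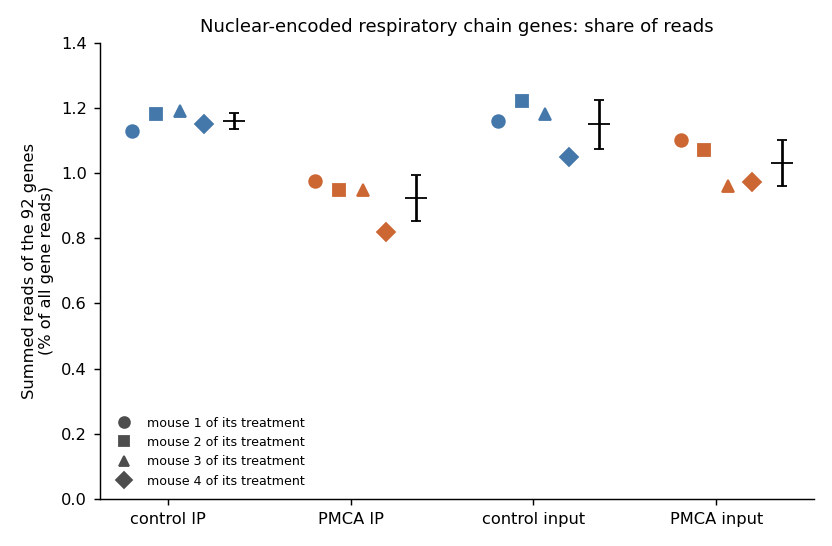
Summed reads of the 92 genes as a percentage of all gene reads, by library, with the 4 groups along the horizontal axis; symbols number the mice within a treatment and the black bar is the mean with its SD (n = 4). The PMCA IP libraries (0.818% to 0.975%) all lie below the control IP libraries (1.13% to 1.19%), while the input groups overlap.

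Core subunits of complex I, which pass electrons from NADH along iron-sulfur clusters, were among those lower in PMCA IP. Ndufv2 (chromosome 17, 66078795 to 66101559, mm10), which holds an iron-sulfur cluster beside the NADH site, lay at 7.02, 7.11, 7.06 and 7.07 log2 CPM in the control precipitates against 6.65, 6.69, 6.75 and 6.77 in PMCA IP. The groups were apart, and Ndufv2 fell by 0.35 on the log2 scale (adjusted p = 0.0039, SE 0.055). Ndufs8 (chromosome 19, 3908863 to 3912774), which carries further clusters, lay at 6.17, 6.32, 6.27 and 6.29 in control IP against 5.84, 5.89, 5.92 and 5.86 in PMCA IP (log2 fold -0.38, adjusted p = 0.00344, SE 0.057). Ndufs3 (-0.29, SE 0.068) and Ndufv1 (-0.28, SE 0.086), which binds NADH, also fell (adjusted p = 0.017 and 0.0445). Ndufs1 (-0.18, adjusted p = 0.127, SE 0.076) and Ndufs7 (-0.22, adjusted p = 0.0707, SE 0.078) did not pass.

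Of the 29 other complex I subunits 19 fell (median -0.32), as did 24 of all 36 (median -0.30). The accessory subunit Ndufb6 (chromosome 4, 40270591 to 40279421) had the largest fall of the complex. It lay at 5.62, 5.75, 5.76 and 5.72 log2 CPM in the control precipitates against 5.34, 5.27, 5.22 and 4.98 in PMCA IP, with no overlap (log2 fold -0.51, adjusted p = 0.00423, SE 0.082). Ndufa12 fell by 0.47 (adjusted p = 0.00437, SE 0.076) and Ndufb2 by 0.44 (adjusted p = 0.0179, SE 0.11) on the log2 scale. Ndufa11, a membrane-arm subunit, lay at the other end (-0.14, adjusted p = 0.131, SE 0.059), with control IP at 5.83 to 5.94 and PMCA IP at 5.66 to 5.83. Of the 7 assembly factors, which build complex I and leave it, 5 fell (median -0.27). Ndufaf2 had the largest fall (-0.41, adjusted p = 0.0316, SE 0.11), and Ndufaf7, a methyltransferase, lay at 4.91 ± 0.11 in control and 4.92 ± 0.16 log2 CPM in PMCA IP (SD, n = 4 each).

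Complex II, which is also an enzyme of the citric acid cycle and is wholly nuclear-encoded, changed least in its catalytic subunit. Sdha (chromosome 13, 74322255 to 74350240), the flavoprotein that oxidises succinate, lay at 9.37, 9.47, 9.45 and 9.37 log2 CPM in the control precipitates against 9.35, 9.35, 9.25 and 9.12 in PMCA IP (log2 fold -0.14, adjusted p = 0.197, SE 0.075). Its groups did not overlap, but the gap was small beside the spread. The iron-sulfur subunit Sdhb (-0.23, adjusted p = 0.0245, SE 0.058) and the membrane anchors Sdhc (-0.26, adjusted p = 0.0298, SE 0.07) and Sdhd (-0.25, adjusted p = 0.0158, SE 0.057) fell.

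In complex III, 4 of 8 genes fell (median -0.29). Uqcrc2 (chromosome 7, 120635189 to 120659523), a core protein of the matrix side, lay at 8.01, 8.08, 8.09 and 8.02 log2 CPM in the control precipitates against 7.62, 7.68, 7.69 and 7.66 in PMCA IP. The gap between the groups was wider than the range within either, and the log2 fold was -0.39 (adjusted p = 0.00289, SE 0.054). Its partner Uqcrc1 fell by 0.29 (adjusted p = 0.016, SE 0.067) and the small subunit Uqcr10 by 0.40 (adjusted p = 0.0204, SE 0.099) on the log2 scale. Uqcrfs1, the Rieske iron-sulfur protein, had a log2 fold of -0.30 (adjusted p = 0.0516, SE 0.097). Cycs (chromosome 6, 50562563 to 50566569), which carries electrons from complex III to IV, lay at 6.09, 6.12, 6.07 and 6.10 in control IP against 5.85, 5.83, 5.86 and 5.68 in PMCA IP. It fell by 0.29 on the log2 scale (adjusted p = 0.0107, SE 0.06), and PMCA 4 was lowest.

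Complex IV had the largest falls, and they were in isoform genes. Of its 18 genes tested 14 fell (median -0.37). Cox6a2 (chromosome 7, 128205435 to 128206366), known as the heart and muscle isoform and as a gene of parvalbumin interneurons, lay at 1.32, 1.56, 1.37 and 1.63 log2 CPM in the control precipitates against 0.69, 0.66, 0.48 and 0.65 in PMCA IP. No libraries overlapped, and it fell by 0.85 on the log2 scale (adjusted p = 0.00414, SE 0.13), while the ubiquitous Cox6a1 fell by 0.37 (adjusted p = 0.00868, SE 0.072). Cox6b2 (chromosome 7, 4751792 to 4753094), known as the testis isoform, lay at 4.73, 4.74, 4.75 and 4.95 in control IP against 4.38, 4.24, 4.01 and 3.80 in PMCA IP (log2 fold -0.68, adjusted p = 0.00602, SE 0.12). Its ubiquitous counterpart Cox6b1 fell by 0.27 (adjusted p = 0.0246, SE 0.07).

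Cox7a1 (chromosome 7, 30184171 to 30186030), the heart and muscle isoform of subunit VIIa, lay at 1.93, 2.45, 2.52 and 2.93 log2 CPM in the control precipitates against 1.88, 1.63, 1.99 and 1.70 in PMCA IP. The groups overlapped, since control 1 was low, and the fall of 0.66 (adjusted p = 0.0382, SE 0.19) lost its call when any 1 of 7 mice was left out (adjusted p up to 0.0923 over all alternatives). Cox7a2, the widely used isoform, lay at 6.70, 6.81, 6.79 and 6.68 in control IP against 6.37, 6.25, 6.29 and 6.08 in PMCA IP, and fell by 0.50 (adjusted p = 0.00325, SE 0.072). Cox7a2l, of the same family, fell by 0.34 (adjusted p = 0.0145, SE 0.075). Of the other pairs, Cox4i1 (-0.33, adjusted p = 0.0385), Cox5a (-0.37, adjusted p = 0.00748), Cox5b (-0.36, adjusted p = 0.00786), Cox7b (-0.39, adjusted p = 0.00534), Cox8a (-0.36, adjusted p = 0.0291) and Ndufa4 (-0.47, adjusted p = 0.00573) fell.

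Some complex IV genes did not pass. Cox4i2 (chromosome 2, 152753916 to 152765039), the isoform of lung and mural cells, lay at 2.98, 3.28, 2.95 and 2.88 log2 CPM in the control precipitates against 3.34, 3.20, 2.92 and 2.83 in PMCA IP (log2 fold 0.05, adjusted p = 0.827, SE 0.13). Ndufa4l2, a hypoxia-induced relative of Ndufa4, had 3 to 91 reads in a library and lay at -1.90 ± 0.50 in control IP against -2.87 ± 0.70 in PMCA IP (SD, n = 4), so its log2 fold of -0.98 (adjusted p = 0.161, SE 0.46) was imprecise. Cox7b2, with 4 to 24 reads, lay at -1.78 ± 0.54 and -1.55 ± 0.63. Cox6a2, Cox4i2 and Ndufa4l2 overlap Itgad, Bcl2l1 and Shmt2, and whether strand was used in counting is not stated by the labels or processing notes. In all, 15 of the 92 genes overlap another protein-coding gene, and several have processed pseudogenes, whose reads may have been shared.

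**Figure D2:**
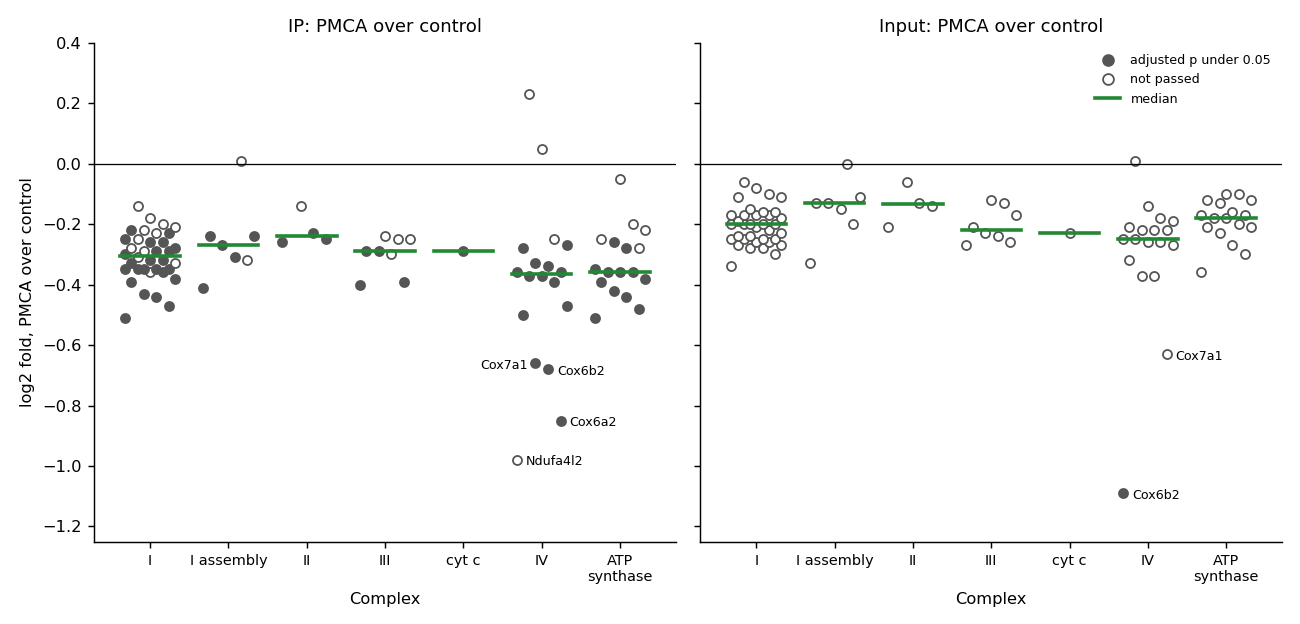
Log2 fold of PMCA over control for each gene, by complex, in IP (left) and input (right); filled points passed at an adjusted p under 0.05 and green bars are medians of the genes tested. In IP 63 of 91 points are filled and all of these lie below 0, whereas in input 1 is filled, Cox6b2.

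In ATP synthase 12 of 17 genes fell in PMCA IP (median -0.36). The catalytic pair fell alike. Atp5b (chromosome 10, 128083307 to 128090388), the beta subunit that makes ATP, lay at 10.73, 10.77, 10.77 and 10.73 log2 CPM in the control precipitates against 10.41, 10.41, 10.38 and 10.22 in PMCA IP (log2 fold -0.39, adjusted p = 0.0095, SE 0.079). Atp5a1, the alpha subunit, fell by 0.36 (adjusted p = 0.0113, SE 0.076) and Atp5c1, the gamma subunit of the rotor, by 0.35 (adjusted p = 0.00515, SE 0.06) on the log2 scale. Atp5o (chromosome 16, 91925223 to 91931630), the stalk subunit that confers oligomycin sensitivity, lay at 7.59, 7.71, 7.75 and 7.69 in control IP against 7.16, 7.18, 7.27 and 7.11 in PMCA IP. It had the largest fall of the complex (-0.51, adjusted p = 0.00196, SE 0.061). The genes Atp5g1, Atp5g2 and Atp5g3 all make subunit c of the rotor ring, and fell by 0.42, 0.38 and 0.36 (adjusted p = 0.00597, 0.0115 and 0.0177). Atp5j, the coupling factor, did not pass (-0.05, adjusted p = 0.731, SE 0.086) and overlaps Gabpa.

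Over the 18 core subunits, 14 fell in PMCA IP and all 18 lay below 0 (median -0.29). Over the 73 other members tested 49 fell (median -0.32). No member rose, and no call changed sign under any alternative run. The number of calls did depend on single mice: it was 30 without control 2, 36 without control 3, 39 without PMCA 2 and 40 without PMCA 3. Lower calls among all genes dropped too, from 10.1% to 5.03%, 6.38%, 6.49% and 5.59% in that order. Leaving out both mice of high Xist, a choice made after seeing the data, gave 25, against 3.5% of all genes, and ended the calls of Atp5a1, Atp5b, Atp5g2 and Ndufb2 among others. Of the genes named above besides Cox7a1, Ndufs3, Ndufv1, Ndufaf2, Sdhb, Sdhc, Sdhd, Uqcrc1, Uqcr10, Cox4i1, Cox6b1, Cox8a and Atp5g3 lost their call without 1 mouse or another (highest adjusted p over all alternatives 0.0651 to 0.129). Ndufv1 also lost it with the set of animal numbers as a block. Without PMCA 4, which stood lowest, 60 were lower with a median of -0.25. Relative to the control mean of each gene, the median member lay at -0.22, -0.29, -0.26 and -0.48 in the IP libraries of PMCA 1 to 4.

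Other RNA moved in the same libraries, where 9.54% of all genes were called higher and 10.1% lower in PMCA IP. Of 10 neuron markers 8 fell in PMCA IP (median -0.51), with their summed level at 2710 to 3740 CPM in control and 2150 to 2390 in PMCA IP. Of 5 parvalbumin interneuron markers other than Cox6a2, 4 fell (median -0.86, with 252 to 298 and 202 to 236 CPM), and Nefh is in both lists. All 5 nuclear RNAs rose (median 1.15, with 1460 to 2200 and 3140 to 5590 CPM), though in PMCA mice they were still lower in IP than in input (median -1.51). Of 10 astrocyte markers 4 rose and 0 fell (31300 to 41300 and 43200 to 50700 CPM), and of 9 microglia markers 5 rose (24.5 to 38.4 and 43.9 to 79.3 CPM). Oligodendrocyte markers gave 0 of 6 calls (4670 to 10200 and 5570 to 6550 CPM), projection neuron markers 1 lower of 8 (2030 to 3620 and 2090 to 3280 CPM), endothelial and mural markers 3 higher and 2 lower of 7 (73.4 to 81.2 and 89.6 to 97.5 CPM), and muscle markers 0 of 2 (1.95 to 2.66 and 1.32 to 2.06 CPM). No marker was at 0 in all libraries of a group. The part of these shifts, or of Rpl22, in the fall of the respiratory chain genes was not tested.

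**Figure D3:**
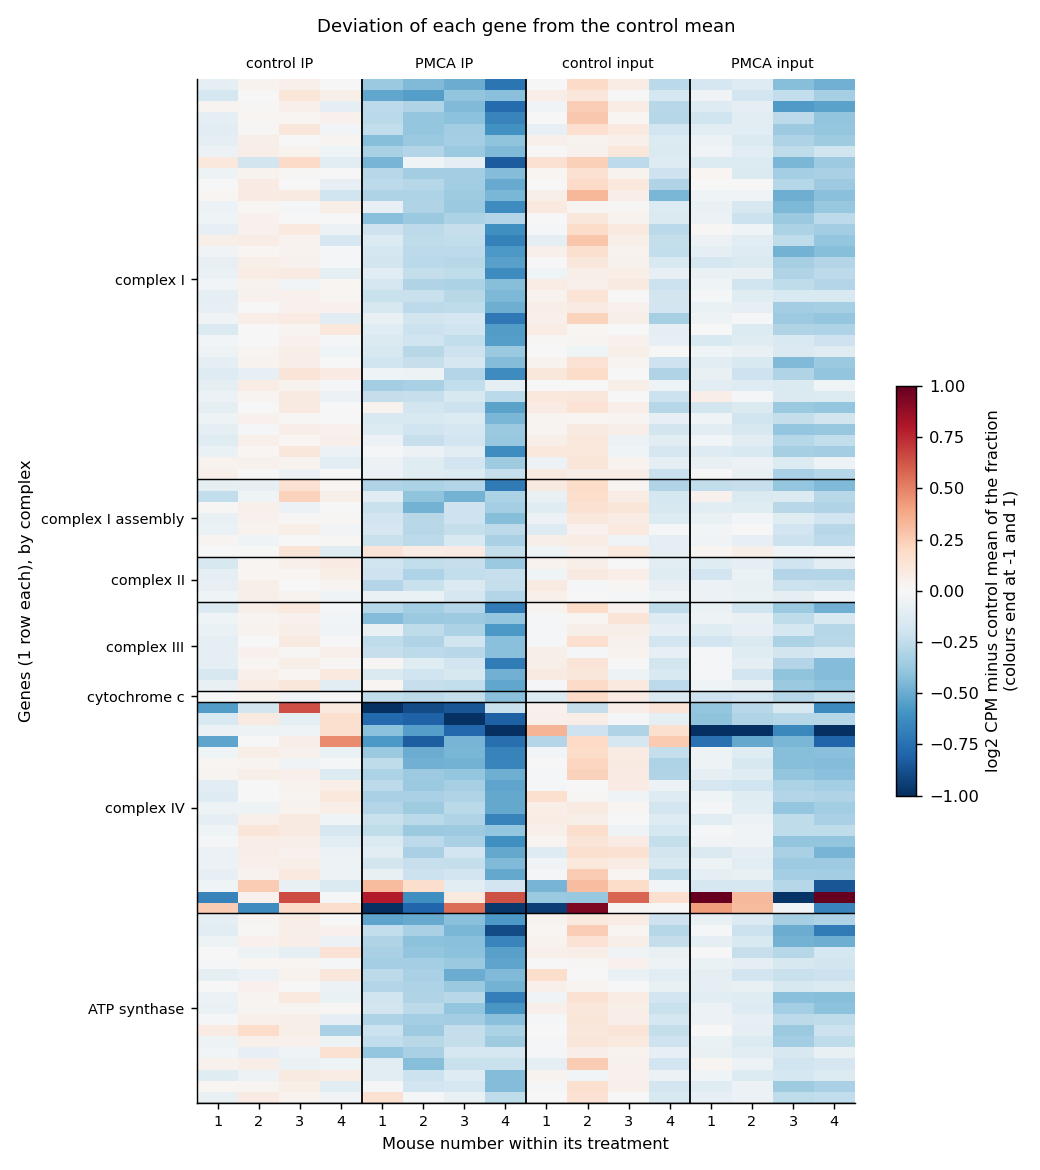
Log2 CPM of each of the 92 genes (rows, by complex, and within a complex from the largest fall in PMCA IP) minus its control mean in the same fraction, in 16 libraries (columns); blue is lower, red higher, and colours end at -1 and 1. The PMCA IP columns are blue in nearly every row, most of all PMCA 4 (median -0.48), and in input control 4 (-0.16) resembles the PMCA mice (-0.07 to -0.32).

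Related gene lists placed these counts in context. Of 38 further subunits and assembly factors tested in PMCA IP, 6 fell and 0 rose (median -0.12), against 10.1% of all genes called lower. Those that fell included Cyc1, the cytochrome of complex III (-0.38, adjusted p = 0.0202), and Usmg5 of ATP synthase (-0.35, adjusted p = 0.0135). Tmem70, which assembles ATP synthase (-0.48, adjusted p = 0.00253), and Lrpprc, which steadies mitochondrial mRNA (-0.38, adjusted p = 0.00363), fell too. Against that same share, 1 of 12 transcription regulators passed: Tfam, which packs and transcribes mitochondrial DNA (-0.23, adjusted p = 0.0329, SE 0.065). Ppargc1a (-0.06, adjusted p = 0.597, SE 0.07) and Nrf1 (-0.16, adjusted p = 0.138, SE 0.07) did not. Of 15 citric acid cycle and pyruvate dehydrogenase genes 9 fell (median -0.22), led by Fh1 (-0.37) and Idh3b (-0.34). Of 6 carriers and channels 3 fell, led by Slc25a5, an ATP and ADP exchanger (-0.47, adjusted p = 0.00243, SE 0.06). Lower calls also covered 36 of 77 mitochondrial ribosomal protein genes (median -0.23) and 65 of 80 cytosolic ones (median -0.38). None of these lists had a higher call, and no difference between lists was tested.

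The second comparison made the same contrast in whole lysate. There 1 of 91 members passed as lower and 0 as higher, against 0.0797% and 0.362% of all 16306 genes. Even so 89 of 91 lay below 0, against 51.7% of all genes, with a median of -0.20 (all genes -0.01), and 68 had an unadjusted p under 0.05, as did 3152 of all 16306. In 9 of 91 genes every PMCA input lay below every control input, against 4.77% of all genes. The gene that passed, Cox6b2, lay at 2.45, 1.90, 1.81 and 2.27 log2 CPM in control input and 0.95, 0.71, 1.46 and 0.95 in PMCA input. The groups were apart, and it fell by 1.09 on the log2 scale (adjusted p = 0.0437, SE 0.19). Its call was lost without any 1 of control 1 to 3 or PMCA 1 to 4 (adjusted p up to 0.131). Cox5a came next in p (-0.25, adjusted p = 0.0578, SE 0.049), and Cox7a1 had a log2 fold of -0.63 (adjusted p = 0.132, SE 0.19).

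By complex, medians in input were -0.20 for complex I, -0.13 for its assembly factors, -0.14 for complex II, -0.22 for complex III, -0.25 for complex IV and -0.18 for ATP synthase. Ndufb6 lay at 5.57, 5.76, 5.64 and 5.30 log2 CPM in control and 5.40, 5.44, 5.14 and 5.09 in PMCA input, overlapping through control 4 (-0.30, adjusted p = 0.162, SE 0.10). Sdha varied little, at 8.42 ± 0.035 and 8.36 ± 0.028 (SD, n = 4; log2 fold -0.06). One control mouse set the count: without control 4, 45 of 92 members passed as lower (median -0.27), against 2.53% of all genes, and leaving out any other mouse gave 0. Control 4 had a median deviation of -0.16 from the control mean, inside the PMCA inputs at -0.07, -0.12, -0.30 and -0.32. Animal numbers fall into a lower set (control 1 to 3, PMCA 1 and 2) and a higher set (control 4, PMCA 3 and 4). The labels give conflicting animal numbers for control 4, the only control in the higher set, so its place rests on the number used here. With that set as a block 29 members passed as lower in input and 58 in IP, against 1.52% and 9.59% of all genes, and 868 genes of all were called in input in place of 72. Within the sets the median difference was -0.15 and -0.13 in input, and -0.25 and -0.37 in IP. Without both mice of high Xist 8 members were lower in input, against 0.396% of all genes, with 490 genes of all called.

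Whether the PMCA effect differed between the fractions was tested over all 16 libraries. No member passed in either direction (limma, 0 of 92; 0 also by voom), against 1.06% lower and 0.972% higher among all 16673 genes, and 10 of 92 had an unadjusted p under 0.05, against 2711 of all 16673, a larger share. The median of this difference was -0.12 (all genes 0.01), and 81 of 92 lay below 0, against 8164 of all 16673. Cox6a2 came nearest (-0.53, adjusted p = 0.086, SE 0.15), since it fell by 0.85 in IP and by 0.32 (adjusted p = 0.144, SE 0.10) in input. For Uqcrc2 the difference was -0.26 (adjusted p = 0.113, SE 0.08), for Atp5b -0.26 (adjusted p = 0.135, SE 0.087) and for Atp5o -0.29 (adjusted p = 0.154, SE 0.10). Cox6b2 (0.41, adjusted p = 0.424, SE 0.24) and Cox4i2 (0.42, adjusted p = 0.462, SE 0.26) lay on the other side of 0. More members were thus called in IP, but for no single member was a difference between the fractions shown. Outside the 92 genes, Lrpprc (-0.39, adjusted p = 0.0146, SE 0.07) and Slc25a5 (-0.33, adjusted p = 0.0299, SE 0.071) passed this test as lower. So did 4 of 10 neuron markers (median -0.44) and 4 of 5 parvalbumin interneuron markers (-0.91), with Nefh in both lists. Of 5 nuclear RNAs 4 passed as higher. The part of these genes in the members' differences was not tested.

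The remaining comparisons asked how the genes were placed between precipitate and lysate. In control mice 35 of 91 members were higher and 22 lower in IP (median 0.06). Among all 16072 genes 39.1% were higher and 38.4% lower, so the higher calls lay near that share and the lower calls below it. The members divided between the listed core subunits and the rest. Of the 18 core subunits 15 were higher and 0 lower in IP (median 0.57), whereas of the 73 others 20 were higher and 22 lower (median -0.04). All 4 genes of complex II were higher. Sdhc rose from 6.28 ± 0.072 in input to 7.34 ± 0.11 log2 CPM in IP (SD, n = 4; log2 fold 1.05, adjusted p = 9.34e-08, SE 0.065) and Sdha by 0.99 (adjusted p = 4.46e-08, SE 0.055). In complex III the 3 core genes were higher, Uqcrfs1 from 6.49 ± 0.073 to 7.49 ± 0.059 log2 CPM (SD, n = 4; limma adjusted p = 4.18e-08), Uqcrc1 by 0.86 and Uqcrc2 by 0.57, and none of the 5 small subunits passed (median 0.01).

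In complex I 14 of 36 were higher and 4 lower (median 0.10), with Ndufs1 at 0.69 (SE 0.064) and Ndufv1 at 0.64 (SE 0.049) among the core genes. Over all genes 39.1% were higher and 38.4% lower in control IP, so the higher calls of complex I lay near that share. The accessory subunits ran from Ndufc2 (0.71, adjusted p = 2.58e-05, SE 0.089) to Ndufa1 (-0.66, adjusted p = 0.000137, SE 0.10). In ATP synthase 9 of 17 were higher and 5 lower (median 0.29): Atp5a1 (0.70, SE 0.066), Atp5b (0.58, SE 0.067) and Atp5c1 (0.39, SE 0.071) were higher, and the related factor Atp5sl (-0.37, SE 0.067) was lowest. The 3 genes of subunit c parted, with Atp5g3 higher (0.53, adjusted p = 5.67e-05, SE 0.073), Atp5g1 lower (-0.23, adjusted p = 0.00733, SE 0.064, not called without control 2) and Atp5g2 at 0.06 (adjusted p = 0.489, SE 0.081). Ndufaf4 was the lowest assembly factor (-0.60, SE 0.064).

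Complex IV had both extremes. Of 18 genes 10 were lower and 4 higher in control IP (median -0.24), against 38.4% and 39.1% of all genes. Cox6b2 rose from 2.11 ± 0.31 log2 CPM in input to 4.79 ± 0.11 in IP (SD, n = 4), a 6.44-fold difference (log2 fold 2.69, adjusted p = 2.45e-08, SE 0.14). Cox4i2 was 3.81-fold higher (log2 fold 1.93, SE 0.17) and Cox7a1 3.53-fold (1.82, SE 0.22). Each had all 4 IP libraries above all 4 inputs, as did 5952 of all 16072 genes. Their widely used counterparts were not enriched: Cox6b1 had a log2 fold of -0.03 (SE 0.067), Cox4i1 -0.14 (SE 0.083) and Cox7a2 -0.22 (adjusted p = 0.0362, SE 0.084, not called without any 1 of control 1 to 3). Ndufa4l2 fell, from 0.91 ± 0.16 in input to -1.90 ± 0.50 in IP (log2 fold -2.80, adjusted p = 4.12e-06, SE 0.28), Cox7a2l by 0.92 (SE 0.087) and Cox6a2 by 0.58 (adjusted p = 0.00108, SE 0.12) on the log2 scale.

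**Figure D4:**
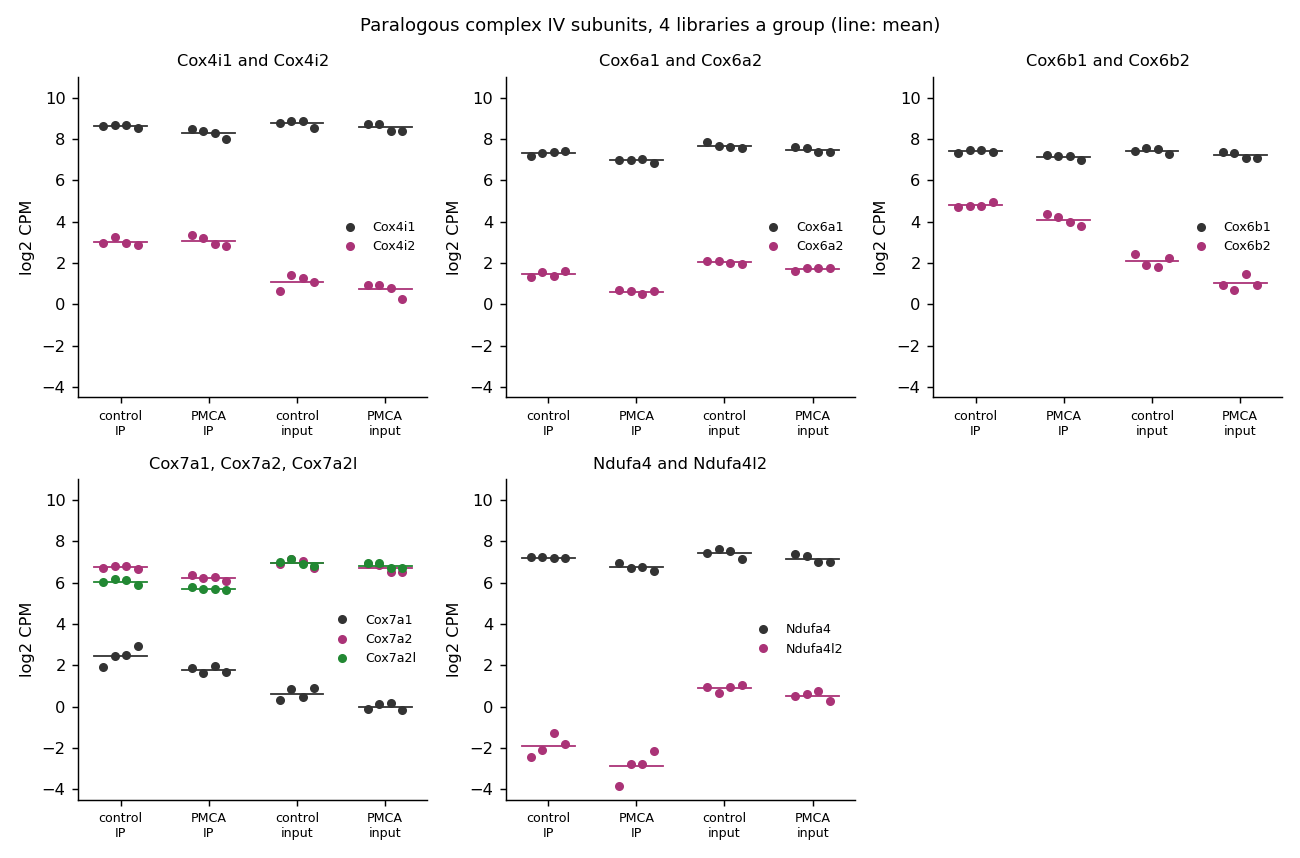
Log2 CPM of paralogous complex IV subunits in each library of the 4 groups, with the group mean as a line; each panel is 1 family. Cox6b2, Cox4i2 and Cox7a1 lie higher in IP than in input and Ndufa4l2 and Cox6a2 lower, while Cox6b1 and Cox4i1 stay close across fractions; levels of different genes are not to be compared, since transcript length was not taken into account.

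PMCA mice gave a like placement, with 30 members higher and 31 lower in IP of 92 tested (median -0.04), against 37.4% and 39.3% of all 16345 genes. Core subunits were higher in 14 of 18 cases and lower in 1, Cycs (median 0.38), whose call was lost without PMCA 1, PMCA 2 or PMCA 4. Without PMCA 2 the lower calls among all members were 17. Cox6b2 rose by 3.09 (SE 0.18), Cox4i2 by 2.34 (SE 0.18) and Cox7a1 by 1.79 (SE 0.15) on the log2 scale, and Ndufa4l2 fell by 3.41 (SE 0.36). Cox8b, the muscle isoform of subunit VIII, with 3 to 19 reads in a library, was lower (-1.33, adjusted p = 0.0326, SE 0.50), a call lost without PMCA 1 or PMCA 2. Across the 91 members tested in both, the folds of the 2 treatments correlated with r = 0.99, a description across genes that share platform and scaling. Per mouse, the median IP minus input over the 92 members was -0.01, -0.02, 0.07 and 0.26 in control 1 to 4 and -0.09, -0.08, 0.11 and -0.11 in PMCA 1 to 4, so control 4 had the highest, as its input was low.

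**Figure D5:**
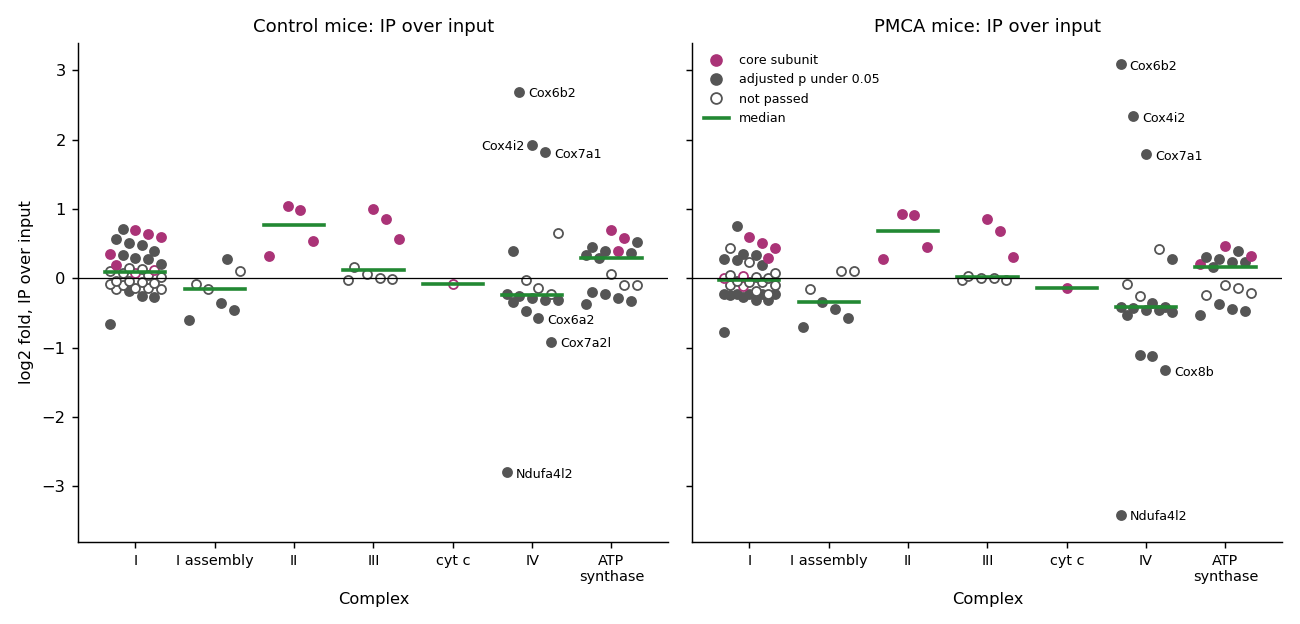
Log2 fold of IP over input for each gene, by complex, in control mice (left) and PMCA mice (right); purple marks the 18 core subunits, filled points passed at an adjusted p under 0.05 and green bars are medians. Core subunits lie mostly above 0 (15 of 18 higher in control mice, 14 of 18 in PMCA mice), and complex IV holds both the highest gene, Cox6b2, and the lowest, Ndufa4l2.

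These placements rest on the authors' scaling factors, which were 1.10 to 1.12 in inputs and 0.89 to 0.92 in IP libraries. With total reads in their place the median of all genes shifted to -0.28 in control and -0.35 in PMCA mice, and calls became 19 higher and 52 lower in control and 12 higher and 56 lower in PMCA mice, while 52.3% and 54.5% of all genes were lower. Relative to that shift the members' medians (-0.21 and -0.34) again lay near those of all genes. Of the members called, 2 then changed sign in control and 12 in PMCA mice, among them Ndufs8 in control and Atp5c1, Atp5o, Atp5s, Cox5a, Ndufs7 and Sdhd in PMCA mice. The other lists varied in control IP, where 39.1% of all genes were higher and 38.4% lower. All 15 citric acid cycle and pyruvate dehydrogenase genes were higher (median 0.67), as were 5 of 6 carriers and channels. Of 38 further subunits and assembly factors 11 were higher and 19 lower (median -0.18). Mitochondrial ribosomal protein genes gave 36 higher and 15 lower of 77 (median 0.15). Cytosolic ones gave 3 higher and 75 lower of 81 (median -1.12). Of 12 regulators 4 were higher and 3 lower in IP in control mice (median -0.01), and 4 higher and 6 lower in PMCA mice (median -0.10). They ran from Ppargc1a, the coactivator of mitochondrial genes (1.37 in control and 1.28 in PMCA mice), to Ppargc1b (-0.88 and -0.71).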

How the data were processed

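Per the labels' protocols, RNA of 16 libraries from 8 mice was depleted of ribosomal RNA and prepared with a stranded kit. The authors deposited log2 CPM for 20730 gene rows, and the submitters' processing notes name STAR, HTSeq, edgeR, limma and mm10, without versions. With the prior count of 0.25 removed, 100% of values were whole reads within 0.001, which gave the total counts. Limma 3.58.1 (R 4.3.3) with a mean-variance trend was fitted to the log2 values of the libraries of each comparison, and to all 16 for the difference between fractions. Genes needed 10 reads in 4 libraries and 15 in all. P-values were adjusted by Benjamini-Hochberg over all genes tested, at a threshold of 0.05. Voom on the recovered reads was an alternative, as were total reads, a prior of 2, other filters, no trend, robust eBayes, blocks and each mouse left out.

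The members and lists were chosen with earlier results of these data known. Genes named are the isoform families, the core subunits, the 3 called members of largest fold each way in a comparison and the ends of each complex. Related genes of other lists are examples. Input and IP share a mouse by their labels, and their deviations from group means correlated at 0.11 to 0.33 within a mouse (8 pairs) and -0.20 to 0.08 between mice (24 pairs), over 16673 genes. Replicates differed beyond sampling noise (chi-square per degree of freedom 4.72 to 104 over 24 pairs). For control 4 the labels give conflicting animal numbers. Mice are separate animals, so p-values of PMCA against control measure the spread between them. For IP against input and for the test between fractions, the main fits treated the libraries of a mouse as independent. Their p-values do not use the pairing, and the fits with the mouse as a block are given below. Transcript lengths were not used, so levels are not compared between genes. Values of 1 member are not reported here by name, though it is in the counts.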

Additional observations from a re-analysis of the deposited data

Results flagged for a closer look

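In 18 of 236 sets of 4 libraries, 1 library stood apart from the other three by a gap that passed Dixon's critical value, and chance flags about 1 in 20 such sets. PMCA 4 was the low library in 8 of the IP sets. There it lay at 10.22 log2 CPM for Atp5b (others 10.38 to 10.41), 6.82 for Cox6a1 (7.01 to 7.03), 5.68 for Cycs (5.83 to 5.86), 2.71 for Ndufaf2 (3.10 to 3.13), 4.67 for Ndufaf7 (4.98 to 5.04), 6.04 for Ndufs7 (6.35 to 6.36) and 5.79 for Uqcr10 (6.15 to 6.21). Its summed share of reads was 0.818%. PMCA 3 was low for Cox6a2 in IP, at 0.48 (0.65 to 0.69).

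Among control IP libraries, control 4 was high for Cox6b2 at 4.95 (4.73 to 4.75) and low for Cox7b at 6.56 (6.73 to 6.76) and Ndufs1 at 7.87 (8.02 to 8.03). Control 1 was low for Atp5g3 at 7.56 (7.64 to 7.65) and Ndufs3 at 6.29 (6.41 to 6.43), and control 2 for Cox8b at -3.18 (-2.38 to -2.30), a gene with a few reads. Among control inputs, control 4 was low for Ndufa11 at 5.62 (5.91 to 5.93), Ndufs7 at 6.07 (6.17 to 6.18) and Ndufs8 at 5.93 (6.10 to 6.12).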

How the results depend on the processing

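Leaving out 1 mouse gave 30 to 60 lower members in PMCA IP and 0 to 45 in PMCA input, and 17 to 33 lower members for IP against input in PMCA mice. Leaving out both mice of high Xist, chosen after seeing the data, gave 25 in IP and 8 in input. In input, 2 members were lower with total reads, 2 with robust eBayes, 0 without a filter, 0 without the trend and 29 with the animal number set as a block. For IP against input, total reads gave 19 higher and 52 lower with a median of -0.21 in control mice, and 12 higher and 56 lower with a median of -0.34 in PMCA mice. That setting turned 2 called members in control and 12 in PMCA mice, of which the genes named here are Ndufs8 in control mice (-0.08) and Atp5c1 (-0.11), Atp5o (-0.15), Atp5s (-0.07), Cox5a (-0.03), Ndufs7 (-0.01) and Sdhd (-0.03) in PMCA mice. Without the trend 1 member, Cox6a2, was lower in the test between fractions. Per effective library size the shares of reads were 1.28%, 1.03%, 1.05% and 0.925% in control IP, PMCA IP, control input and PMCA input. With the mouse as a replicate block, the paired fit of IP against input gave 35 higher and 25 lower in control mice, 30 higher and 35 lower in PMCA mice, and 0 and 0 for the test between fractions. The cause of these shifts was not tested. Depth limits Cox7b2, Cox8b and Ndufa4l2.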
